A study of Mus musculus with 2 samples.

Results

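Blood B-cells were described here as the cells that the authors' annotation calls B-cells, which were 600 of 978 annotated cells (61.3%) and came from all 11 mice. The cells are from a study of ageing in mouse blood that read the RNA and the DNA methylation of single cells with scM&T-seq, and the RNA counts were used here. All mice were wild-type C57BL/6 J males without treatment. They were 9.6 and 9.7 weeks old (n = 2), 36.1 weeks (n = 3), 77 to 77.4 weeks (n = 3) and 99.1 to 101.1 weeks (n = 3), and these groups are called 10, 36, 77 and 101 weeks. Blood was depleted of red blood cells by lysis, nucleated single cells were sorted into 96-well plates, and the cells of each mouse carried a single plate number, so that mouse and plate cannot be told apart. The 3 mice of 101 weeks are called the oldest mice and the other 8 the younger mice.

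B-cells recognise antigen through a surface immunoglobulin, built from heavy chains and from light chains of the kappa or the lambda type, which signals through the proteins Cd79a and Cd79b. A naive B-cell makes IgM and IgD from the same rearranged heavy-chain gene by alternative RNA processing. Young transitional B-cells that have just left the bone marrow carry much IgM and little IgD, while mature follicular B-cells recirculate through blood and lymph nodes and carry more IgD. Class-switched cells make IgG, IgA or IgE in their place, and plasma cells secrete the antibody.

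A mouse contributed from 29 to 78 B-cells, and B-cells were 34.1 to 87.6% of the annotated cells of a mouse. Total counts per B-cell ranged from 157049 to 1222914, with a median of 328496, and from 1511 to 5068 genes had at least 1 count, with a median of 2414. Reads carried no molecular identifiers, so that the counts are of reads and not of molecules. The oldest mice differed from the younger mice in depth, with mean numbers of genes per cell of 2804 to 2908 against 2089 to 2477. They also differed in red cell RNA: 10 of 195 cells of the oldest mice (5.13%) and 191 of 405 cells of the younger mice (47.2%) had at least 10 hemoglobin counts. The comparisons by age were therefore also fitted with the mean number of genes per cell as a covariate and in cells with under 10 hemoglobin counts, and the counts of genes are given for both fits, while most single genes and the lists are given without them.

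The 3 markers of the type were found in the cells with the B-cell label. The authors made this label from the same RNA, so the values below describe the labelled cells and do not test the label. Cd79a and Cd79b, the signalling chains of the B-cell receptor, and Ms4a1, which encodes the surface protein CD20, all had at least 1 count in 540 of the 600 cells, at least 2 of the 3 markers had one in 594 cells, and no cell lacked all 3. Per mouse, the mean level of Cd79a was 2422 to 3644 CPM, counts scaled to the same total in every cell, with a median of 3085, that of Cd79b 2139 to 3419 with a median of 2922, and that of Ms4a1 1790 to 4182 with a median of 2393. In the 329 CD4+ and CD8+ T-cells of the same mice, the highest mean of a mouse was 13.1 CPM for Cd79a, 44.2 for Cd79b and 0.15 for Ms4a1, so that the ranges of B-cells and T-cells were far apart. The T-cell receptor gene Cd3d gave the opposite pattern, with 0 to 11.4 CPM in the B-cells of a mouse and 1021 to 1679 CPM in its T-cells.

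**Figure D1:**
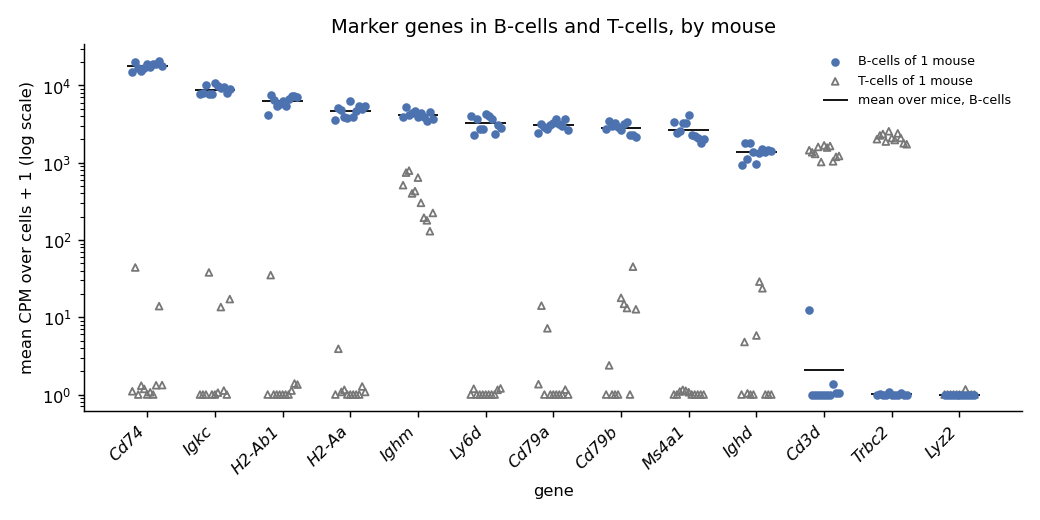
Mean CPM plus 1 over the cells of each mouse, on a log axis, for 10 genes of B-cells, 2 of T-cells and 1 of myeloid cells. Blue points are the B-cells and open triangles the T-cells of 1 mouse each (n = 11 mice), and lines are means over the mice for B-cells. Ighm is the B-cell gene with the highest level in T-cells, at 129 to 789 CPM.

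Few cells carried markers of other lineages. A level of at least 50 CPM was found for any of 5 T-cell markers in 1 B-cell, for any of 5 NK cell markers in 2, for any of 6 platelet markers in 3 and for any of 6 monocyte and neutrophil markers in 0, and no cell had 2 or more of these markers of any type. The longer lists gave more cells, with 27 for any of 12 T-cell genes and 8 for any of 9 monocyte and neutrophil genes. Most of these came from Lck, a kinase gene at that level in 24 cells, and Ly6c2, in 6 cells. Lyz2, S100a9 and Ncr1 had no count in any of the 600 cells, which leaves room for at most 0.5% of B-cells with a count. Cells were sorted as singlets and no doublet caller was run. Ighm counts were also found in 51.1% of T-cells, and their source was not tested. Red cell RNA was found in B-cells more often than any of these, and it took up to 50% of the counts of a cell, while 399 cells had under 10 hemoglobin counts.

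The genes that took the most counts were those of antigen presentation, immunoglobulin, hemoglobin and housekeeping. CPM are not corrected for gene length and are therefore shares of reads. Cd74, the invariant chain of MHC class II, took 17882 ± 1888 CPM (SD over 11 mice), with 14986 to 20950 CPM per mouse. The hemoglobin gene Hbb-bs came next, at 10523 ± 8691 CPM with 17.5 to 25070 CPM per mouse, although only 28.0% of cells had a count of it. Igkc, the kappa constant gene, took 8869 ± 1067 CPM, and Tmsb4x and Actb, genes of the actin cytoskeleton, took 8906 ± 2779 and 8381 ± 1421 CPM. Of the 20 genes with the most counts, 3 code for MHC class II (Cd74, H2-Ab1 and H2-Aa), 2 for immunoglobulin (Igkc and Ighm), 2 for hemoglobin (Hbb-bs and Hba-a1) and 3 for ribosomal proteins (Rps27, Rps19 and Rpl13). The others were B2m, Malat1, mt-Cytb, mt-Co1, Ddx5, Junb, Tmsb4x and Actb, and the pseudogenes Gm10925 and Gm28437, which are nuclear copies of mitochondrial genes and may share reads with them.

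Of 20 B-cell identity genes, 13 were at 50 CPM or more in over 50% of the B-cells, and all 20 had a higher mean in B-cells than in T-cells. Ly6d, a surface protein of the B-lineage, was at 3157 CPM and present at this level in 95.5% of cells, and Bank1, an adaptor of the receptor, was at 1096.5 CPM and in 75.7%. Cd22, an inhibitory co-receptor, was at 839 CPM in 67.5% of cells. Among 24 genes of B-cell receptor signalling, 7 reached 50 CPM in over 50% of cells, among them the kinase gene Syk (442 CPM, 55% of cells) and the phosphatase gene Ptpn6 (616 CPM, 58.5%). The kinase genes Btk and Lyn, at 290.4 and 212.5 CPM, were present in 40.2 and 38.8% of cells.

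Of 17 genes of MHC class II presentation, 10 reached 50 CPM in over 50% of cells. The chains H2-Ab1, H2-Aa and H2-Eb1 were at 6453, 4813 and 3610.1 CPM in 98.3, 97.3 and 96.7% of cells. The peptide exchange factors H2-DMb2 and H2-DMa were at 1189 and 1133 CPM, and Ciita, the master regulator of the class II genes, was at 680.0 CPM in 57.8%. The co-stimulatory gene Cd86, which rises when B-cells are activated, was at 66.4 CPM and in 9.50% of cells, and Cd40 was in 19.7%. The chains were thus found in nearly every cell, while other genes of the list were less common, with H2-Oa in 40.2% and Rfx5, a regulator of class II transcription, in 4.17% of cells, and 4 of the 17 genes in under 10%.

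Of 25 transcription factors of the B-lineage, 7 reached 50 CPM in over 50% of cells. These were Mef2c (1421.5 CPM), Foxp1 (1335 CPM), Ets1 (1269 CPM), Ebf1 (758 CPM), Irf8 (692 CPM), Pax5 (529 CPM) and Pou2f2 (328 CPM). Foxp1 and Ets1 were shared with T-cells, which had 579 and 1207.5 CPM, whereas Mef2c and Ebf1 were at 0.922 and 1.125 CPM there. Of 16 homing genes, the chemokine receptor gene Ccr7 was at 738 CPM in 52.2% of cells and Klf2 at 637 CPM in 63.2%. The BAFF receptor gene Tnfrsf13c, a survival receptor, was at 477 CPM in 51.8% of cells, and Bcl2 at 133 CPM in 19.7%. Of 12 genes of the Toll-like receptor pathway, Ly86 was at 859 CPM in 71.5% and Unc93b1 at 369 CPM in 44.0%, while the receptor genes Tlr7 and Tlr9 were at 50 CPM in 2.17 and 1.5% of cells.

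Genes of the follicular naive type were the most widely present of the lists of mature subsets, and 4 of its 7 genes reached 50 CPM in over 50% of cells. Ighd, the IgD constant gene, was at 1393 CPM in 88.3% of cells, and Fcer2a, which encodes CD23, at 925 CPM in 66.8%. Cr2, the complement receptor CD21, was at 409.5 CPM in 38.7%. Of the 9 marginal zone genes, which share Cr2 with the follicular list, Notch2 was in 31.2% and Cd1d1 in 9.17% of cells. No gene of the B-1 list was at 50 CPM in 10% of cells, and Cd5 was in 1 cell (0.167%). Of 7 genes of the age-associated list, Zeb2 was in 7.83%, Tbx21 in 3 cells (0.5%) and Itgax in 0 of 600.

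Cells with a switched constant gene and plasma cells were rare. Igha was at 50 CPM or more in 13 cells, Ighg2b in 4, Ighg3 in 3, Ighg2c in 1, and Ighg1 and Ighe in 0. This made 19 cells with a switched constant gene, 1 of which had no Ighm at that level. Of the 19 cells, 15 also had at least 50 CPM of Ighd, so a switched constant gene alone does not show a class switch. Jchain, which joins the units of secreted IgA and IgM, reached 50 CPM in 2 cells, both of mouse 1 of 101 weeks. One of them had 133556 CPM of Jchain, 81326 CPM of Igha and 107880 CPM of Igkc, and also Xbp1 (898 CPM), Mzb1 (731 CPM), Irf4 (329 CPM), Tnfrsf17 (725 CPM) and Txndc5 (1098 CPM), genes of the secretory pathway and of plasma cells. It had no count of Ms4a1, Pax5, Ighm or Ighd. Other genes went against the plasma cell type, since Prdm1, Slpi, Creld2 and Fkbp11 of the plasma cell list had no count either. Cd79a (691 CPM), Cd79b (680 CPM), Cd74 (3934 CPM) and H2-Aa (278 CPM) were still present. The other cell had 437 CPM of Jchain, 738 CPM of Ms4a1 and 1894 CPM of Ighm. The first cell, which resembled an IgA plasma cell in part of these genes, is 1 cell of 1 mouse. It set most of the mean of Jchain and Igha over all B-cells. Of 5 markers of cycling cells, any reached 50 CPM in 11 cells and 2 or more in 0. Any of the 16 genes of the longer cell cycle list, which holds genes also made outside division such as Hmgb2 and Tubb5, did in 461 cells.

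Light chains come from the kappa locus on chromosome 6 or the lambda locus on chromosome 16. The mouse lambda locus on chromosome 16 holds few variable genes (Iglv1, Iglv2 and Iglv3) and separate joining and constant genes, of which Iglc2 and Iglc3 are near copies. A stretch of 150 bases near the start of the constant exon is printed for the 3 lambda constant genes because their likeness bears on the counts below. They were read from GRCm38 on the minus strand, at chr16:19198701-19198850 for Iglc2, chr16:19065530-19065679 for Iglc3 and chr16:19061920-19062069 for Iglc1, and capitals mark bases that differ from Iglc2.
Iglc2: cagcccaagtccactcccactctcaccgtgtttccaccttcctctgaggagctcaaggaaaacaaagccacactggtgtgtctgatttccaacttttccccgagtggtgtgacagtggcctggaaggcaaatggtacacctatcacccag
Iglc3: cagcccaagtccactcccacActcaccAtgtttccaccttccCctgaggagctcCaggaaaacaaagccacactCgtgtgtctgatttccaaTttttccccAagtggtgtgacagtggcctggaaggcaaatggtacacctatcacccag
Iglc1: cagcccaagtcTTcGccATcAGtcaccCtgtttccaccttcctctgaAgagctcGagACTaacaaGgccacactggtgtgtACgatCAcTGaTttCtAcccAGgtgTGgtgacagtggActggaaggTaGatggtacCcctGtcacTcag
Iglc3 differed from Iglc2 at 7 bases (95.3% identity) and Iglc1 at 33 bases (78.0% identity). A read can therefore be placed on Iglc1 with more certainty than on either of the other pair. Iglc2 and Iglc3 are therefore given as a sum where groups are compared, and their single values rest on how the authors' counting placed the reads.

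Counts of Iglc2 or Iglc3 were found in 598 of 600 B-cells, also in cells with no sign of a rearranged lambda gene. In 321 cells no Iglv gene had a count. In those cells Iglc2 was at a median of 2037 CPM and Iglc3 at 1244 CPM, and they reached 50 CPM in 96.3 and 98.1% of cells. Iglj3, the joining gene beside Iglc3, was at a median of 192 CPM and in 92.5% of these cells. Iglc1 was less common, at 50 CPM or more in 35.8%, and Igkc was present in 100% of them, at a median of 8280 CPM. Ensembl lists for Iglc2 a transcript with an exon that holds the unrearranged joining gene Iglj2. Whether the counts come from such transcripts was not tested.

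Cells were assigned to the locus with the larger share of all light-chain counts, which gave 542 kappa and 58 lambda cells (9.67%). Because Iglc2 and Iglc3 had counts in nearly every cell, the class depended on the genes used. With constant genes alone 107 cells were lambda, and with variable genes alone 39 cells were (6.50%). The lambda percent of light-chain counts was under 10 in 60 cells, from 10 to 50 in 482, from 50 to 90 in 34 and over 90 in 24, and 56 cells lay between 40 and 60%, with 49.5% in the highest kappa cell and 50.2% in the lowest lambda cell. By variable genes alone, 508 cells were under 10%, so that this measure separated the classes more clearly. The 19 cells that were lambda by all counts and kappa by variable genes had medians of 2699 CPM of Igkc, 2222 CPM of Igkv genes and 34.2 CPM of Iglv genes.

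**Figure D2:**
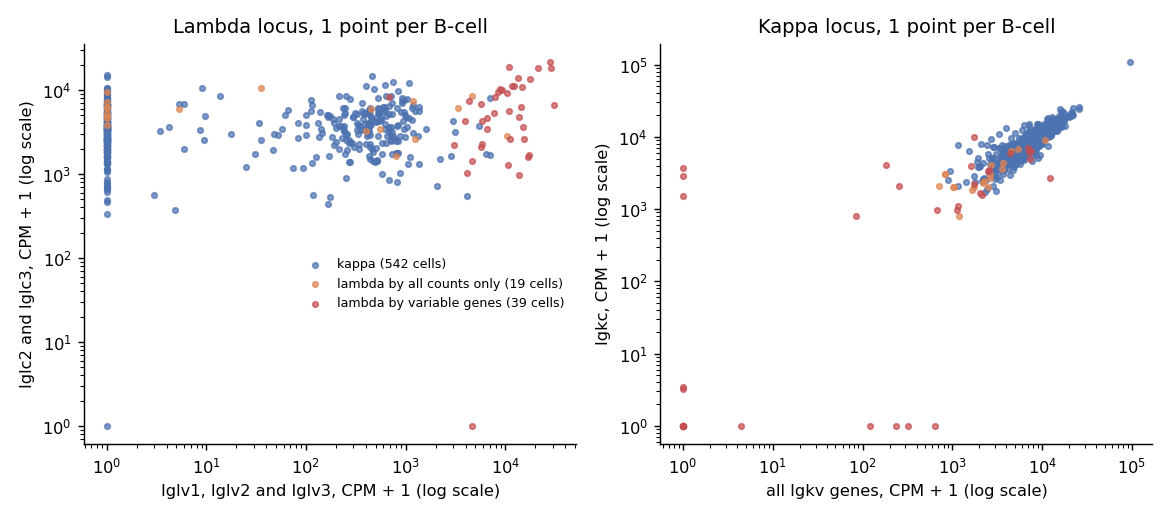
CPM plus 1 in each of 600 B-cells on log axes, with Iglc2 and Iglc3 against the 3 Iglv genes (left) and Igkc against all Igkv genes (right). Blue cells are kappa (542), orange cells lambda by all counts alone (19) and red cells lambda also by variable genes (39). On the left, Iglc2 and Iglc3 are as high in kappa cells without any Iglv count as in many lambda cells, and on the right Igkc follows Igkv over the kappa cells.

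In the 39 cells that were lambda by variable genes, the constant genes differed with the leading variable gene but did not form separate pairs. In 28 cells led by Iglv1, Iglc1 was at a median of 8508 CPM and reached 50 CPM in 26, and these cells also had 4314 CPM of Iglc2 and Iglc3 together. In 7 cells led by Iglv3, Iglc1 was at a median of 0, with 2 cells at 50 CPM or more, and the sum of Iglc2 and Iglc3 at 9411 CPM. In 4 cells led by Iglv2, the sum was at 12301 CPM and Iglc1 at 4258 CPM, with at least 1732 CPM in all 4. Taken singly, Iglc2 had a higher median than Iglc3 in each of these groups, such as 3321 against 353.5 CPM in the cells led by Iglv1 and 12087 against 398 CPM in those led by Iglv2. Igkc was at 0 counts in 15 cells, and all 15 were lambda by variable genes.

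Each B-cell carries its own rearranged receptor, and the Ighv and Igkv genes were spread widely. Of 575 cells with at least 10 Ighv counts, 412 (71.7%) had 90% or more of them on 1 gene, and 83 genes led in at least 1 cell. The most common was Ighv1-26, in 35 cells (6.09%) of 10 mice, followed by Ighv1-64 in 26 and Ighv3-6 in 25 cells. Of 584 cells with at least 10 Igkv counts, 369 (63.2%) had 90% on 1 gene, and 81 genes led. Igkv10-96 led in 35 cells (5.99%) of all 11 mice, Igkv1-117 in 22 and Igkv12-44 in 21. Members of these families are near copies of each other, so that a read may be placed on a wrong member. The 3 Iglv genes were not spread widely. Of 263 cells with at least 10 Iglv counts, Iglv3 led in 184 (70.0%), but it led in only 7 of the 39 cells that were lambda by variable genes.

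The share of lambda cells per mouse was 6.78 to 13.6%, with a median of 10.1%. It was 9.85% ± 0.766 (SD) over the 3 oldest and 9.76% ± 2.36 (SD) over the 8 younger mice, which differ by 0.0875 percentage points (exact permutation test, two-sided, p = 0.909, adjusted p = 0.909 over 2 shares). By variable genes alone it was 6.90% ± 1.63 and 6.43% ± 1.43 (SD over the same mice), apart by 0.474 points (exact permutation test, p = 0.667). By constant genes alone, however, the share was lower in the oldest mice (-6.44 points, exact permutation test, p = 0.0242), a value that includes the counts of Iglc2 and Iglc3 found in kappa cells. The sign of this difference therefore depended on the genes that define the class.

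The level of Iglc2 and Iglc3 itself was lower in the oldest mice. The 3 oldest mice had 2926, 3102 and 3515 CPM, and the younger mice had 3750.5 to 5178 CPM with a median of 4784.5, so that the groups did not overlap. The means were 3181 ± 302 (SD, n = 3) and 4646 ± 459 (SD, n = 8), a ratio of 0.685. In cells without an Iglv count the ranges were 2521 to 3337 and 3594 to 5452 CPM. In cells with under 10 hemoglobin counts they were 2708 to 3601 and 3701.5 to 5156 CPM, and in cells of sequencing lane 2, which held all 3 oldest and 4 younger mice, 2926 to 3515 and 4519 to 5257 CPM. Igkc did not show the gap, with 7894.5 to 9440.4 CPM in the oldest and 7757 to 10748 CPM in the younger mice. The selections of cells overlap with one another, and no fit of this sum had genes per cell as a covariate. As a background, 22 of 1642 protein-coding genes (1.34%) were lower in every oldest mouse than in every younger mouse, in summed counts. The comparison of Iglc2 and Iglc3 by age was chosen after the values were seen and no test was made of it.

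**Figure D3:**
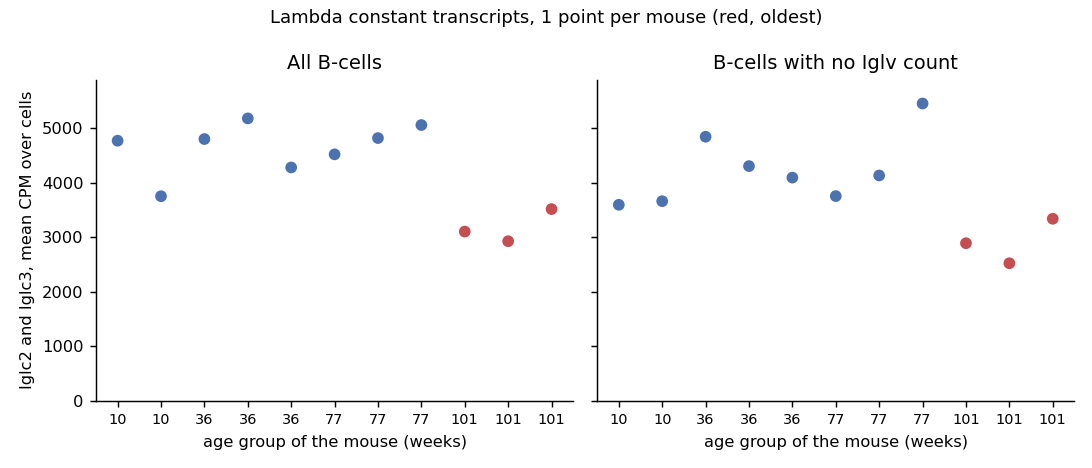
Mean CPM of Iglc2 and Iglc3 over the B-cells of each mouse, ordered by age group, for all B-cells (left) and for B-cells without an Iglv count (right). Red points are the 3 oldest mice and blue points the 8 younger mice, and the highest oldest mouse is below the lowest younger mouse in both panels (3515 against 3750.5 CPM and 3337 against 3594 CPM).

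IgD divided the cells into 530 IgD-high cells and 70 IgD-low cells (11.7%) with under 50 CPM of Ighd, of which 52 had no Ighd count. Between 25 and 100 CPM lay 19 cells, the highest IgD-low cell at 49.6 CPM and the lowest IgD-high cell at 53.1 CPM. IgD-low cells still carried IgM, with a median of 4510.0 CPM of Ighm (the 10th percentile was 1157 and the 90th 11356 CPM), against 3632 CPM in IgD-high cells. Ighm was under 50 CPM in 7 cells, 6 of them IgD-high. Of the IgD-low cells, 4 had a switched constant gene, 8 were lambda and 11 belonged to the transitional B-cell-like cluster described next. The IgD-low share per mouse was 4.55 to 20.7%, and it was 9.15% ± 2.91 (SD, n = 3) in the oldest and 13.3% ± 6.26 (SD, n = 8) in the younger mice, a difference of -4.11 percentage points (exact permutation test, two-sided, p = 0.339, adjusted p = 0.679 over 2 shares).

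Clustering of the B-cells without immunoglobulin genes gave 4 clusters of 249, 224, 99 and 28 cells, which are described without a test because the same genes made them. The first and the second differed in depth and age, with medians of 2197 and 2808.5 genes per cell and 9.60 and 72.8% of cells from the oldest mice, and stay unnamed. In the third and the fourth, 6.1 and 7.1% of cells were from the oldest mice. The third was led by the hemoglobin genes Hbb-bs, Hbb-bt, Hba-a2 and Hba-a1, and all its 99 cells had at least 10 hemoglobin counts. None of these 3 clusters had a marker of a B-cell subset among its 10 leading genes.

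The cluster of 28 cells had 3 markers of transitional B-cells (Vpreb3, Cd93 and Akap12) among its 10 leading genes and is called transitional B-cell-like. It depended on the settings, and with 20 principal components in place of 10 there was no such cluster and 25 of the 28 cells fell into one of 331 cells. Vpreb3, which takes part in receptor assembly in immature B-cells, was at 1795 CPM against 219 CPM in the other 572 cells and reached 50 CPM in 27 of the 28 cells. Cd93, the surface marker AA4.1 of immature B-cells, was at 67.6 against 6.20 CPM and in 25 against 1% of cells. Of the other genes of the transitional list, Bend5 was at 101.5 against 99.7 CPM and Sox4 at 1.6 against 3.9 CPM, so that neither was a mark of the cluster. Among the other leading genes were Cfp, Nedd4, Ccnd2, Fam129c, Marcks and Wfdc21, of which Ccnd2 encodes cyclin D2. Genes of mature recirculating cells were lower, with Fcer2a at 226 against 959.6 CPM and Ccr7 at 298 against 759.6 CPM. Genes of earlier precursors (Rag1, Rag2 and Dntt of the rearrangement machinery and Igll1 of the surrogate light chain) were not at 50 CPM in any B-cell, in or outside the cluster.

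Immunoglobulin genes, which the clustering did not use, also set these cells apart. The median of Ighm was 8019 CPM against 3154 to 3718 CPM in the other 3 clusters, that of Ighd 153 CPM against 952 to 1302 CPM, and 11 of the 28 cells (39.3%) were IgD-low. In the 7 mice with at least 2 of these cells, Ighm was higher in 7 mice (6257 to 14045 CPM against 3456 to 4278 CPM in the other B-cells of the same mice) and Ighd was lower in 7 (0 to 721 CPM against 991 to 1906 CPM). Iglc1 was at 50 CPM or more in 85.7% of the cells against 33.3 to 44.6% in the other clusters, although its mean was higher in 5 of the same 7 mice and lower in 2, and 9 cells were lambda by all counts (32.1%), 5 by variable genes. High IgM with low IgD is the pattern known from transitional B-cells. Ighm and Ighd are measured in the same cells as the clustered genes, so these values carry no test.

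**Figure D4:**
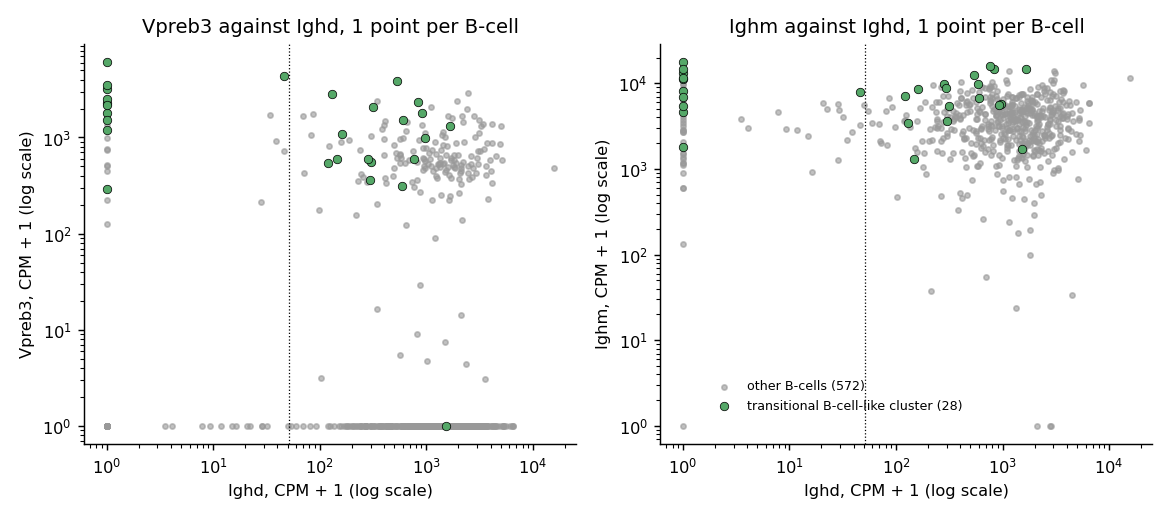
Vpreb3 (left) and Ighm (right) against Ighd in each of 600 B-cells, as CPM plus 1 on log axes. Green points are the 28 cells of the transitional B-cell-like cluster, grey points the other 572 cells, and the dotted line is the limit of 50 CPM for IgD-low cells. Most green cells are high in Vpreb3 and in Ighm, and 11 of them lie left of the line.

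The transitional B-cell-like cells were 0 to 15.9% of the B-cells of a mouse, with a median of 3.85%. The 3 oldest mice had 0, 1.28 and 2.08%, and the younger mice 1.92 to 15.9%, so that the groups overlapped at the lowest younger mouse. Over all cells, 2 of 195 (1.03%) and 26 of 405 (6.42%) were in the cluster. These shares rest on the cluster found with 10 principal components, and 13 of the 28 cells (46.4%) had at least 10 hemoglobin counts. The part of depth and red cell RNA in this difference was not tested. Of the transitional list, Vpreb3 alone was common enough to test, and its level was 99.8 to 265 CPM in the oldest and 149.6 to 484 CPM in the younger mice in counts summed per mouse (log2 difference -0.97 ± 0.34, adjusted p = 0.309 in edgeR's quasi-likelihood test).

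For age, B-cell counts were summed per mouse and tested with edgeR's quasi-likelihood test over the 1642 protein-coding genes found in at least 25% of B-cells, with a threshold of 0.1 on the adjusted p. No gene had a slope on age past it (0 of 1642, 0.0%), 149 genes had an unadjusted p under 0.05, and DESeq2 called 19 and limma 30. With genes per cell as a covariate and in cells with under 10 hemoglobin counts, 140 genes each had an unadjusted p under 0.05 and 0 passed. The smallest p was that of Cacna2d4, a calcium channel subunit (log2 change per 10 weeks -0.59 ± 0.12, adjusted p = 0.188), a gene at 0.416 to 0.93 CPM in the oldest and 0.695 to 57.1 CPM in the younger mice, with mouse 12 highest. The next were Tut4 (-0.14), Lgr5 (-0.32), mt-Nd1 (0.08) and Rplp2 (0.08), with adjusted p of 0.231 for Tut4 and 0.241 for the others. Single mice set the levels of Cacna2d4 and Lgr5, since Lgr5 was at 19.9 CPM in mouse 24 and at most 1.73 CPM in the other younger mice. Both were also among the 10 leading genes of the hemoglobin cluster, with a count in 29.3 and 37.4% of its cells against 25.1 and 31.9% of the others. In cells with under 10 hemoglobin counts their slopes were -0.09 and -0.03, and whether red cell RNA has a part in them was not tested. mt-Nd1, a subunit of the respiratory chain, was at 3292.5 to 3844 CPM in the oldest and 1782 to 2852 CPM in the younger mice, and Rplp2, a ribosomal protein, at 886 to 928 and 444 to 724 CPM. Neither of these ranges overlapped between the groups, but neither slope passed the threshold.

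The oldest mice were then compared with the 8 younger mice. Again 0 of 1642 genes passed (0.0%), 152 had an unadjusted p under 0.05, of which 66 were higher and 86 lower, and DESeq2 called 56 genes and limma 378. With the mean number of genes per cell as a covariate 63 genes had an unadjusted p under 0.05, and in cells with under 10 hemoglobin counts 85 had, again with 0 past the threshold in both. The largest part of the limma calls, 373, was higher in the oldest mice, and its median difference of all genes was 0.54 on the log2 scale, whereas that of edgeR was -0.05. limma used the mean of log2(CPM + 1) over cells, and the oldest mice had more genes per cell. As a background, 51 of the 1642 genes (3.11%) were higher in every oldest mouse than in every younger mouse and 22 (1.34%) were lower in every one.

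Among B-cell genes, Cr2 and Cd79b did not overlap between the age groups, although neither passed, and they are described after their values were seen. Cr2, the complement receptor CD21 that lowers the threshold of the receptor, was at 252, 261 and 336 CPM in the oldest mice and at 412 to 567 CPM with a median of 471 in the younger mice (log2 difference -0.85 ± 0.18, adjusted p = 0.170, and -0.51 with limma). Every oldest mouse was below every younger one. Cd79b was at 2131, 2339 and 2354.5 CPM against 2567 to 3252 CPM with a median of 3059.8 (-0.49 ± 0.12, adjusted p = 0.170), also without overlap. Its partner Cd79a was at 2736 to 3573 and 2337 to 3498 CPM (-0.03 ± 0.14), so that the groups overlapped. Ms4a1 was at 1879, 2144 and 2189.9 CPM against 2115 to 4072 CPM (-0.58 ± 0.18, adjusted p = 0.246), with overlap.

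Txnip, a regulator of glucose uptake and redox state, had the smallest p (log2 difference 1.12 ± 0.21, adjusted p = 0.125). It was at 599, 694.5 and 1002 CPM in the oldest mice and at 232 to 416 CPM in the younger mice, without overlap. With the mean number of genes per cell as a covariate its difference was 0.03, and with limma 3.07. Psmb3, a proteasome subunit, had a difference of -1.02 ± 0.23, at 122.7 to 152 against 219 to 297 CPM, and Cyba, a subunit of the NADPH oxidase, one of -0.59 ± 0.14, at 496.5 to 527 against 629 to 789.5 CPM. With limma the difference of Cyba was -0.08. Rps6, a ribosomal protein, had one of 0.54 ± 0.12, at 1699 to 2148.5 against 1104 to 1531 CPM, and 1.48 with limma. Psmb3, Cyba and Rps6 had an adjusted p of 0.170, so that these are values of genes that did not pass the threshold. Of 19 other fits, including those that leave out 1 mouse, Txnip passed in 4, Rps6 in 2, and Psmb3, Cyba and Cr2 in 1 each, that of DESeq2.

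**Figure D5:**
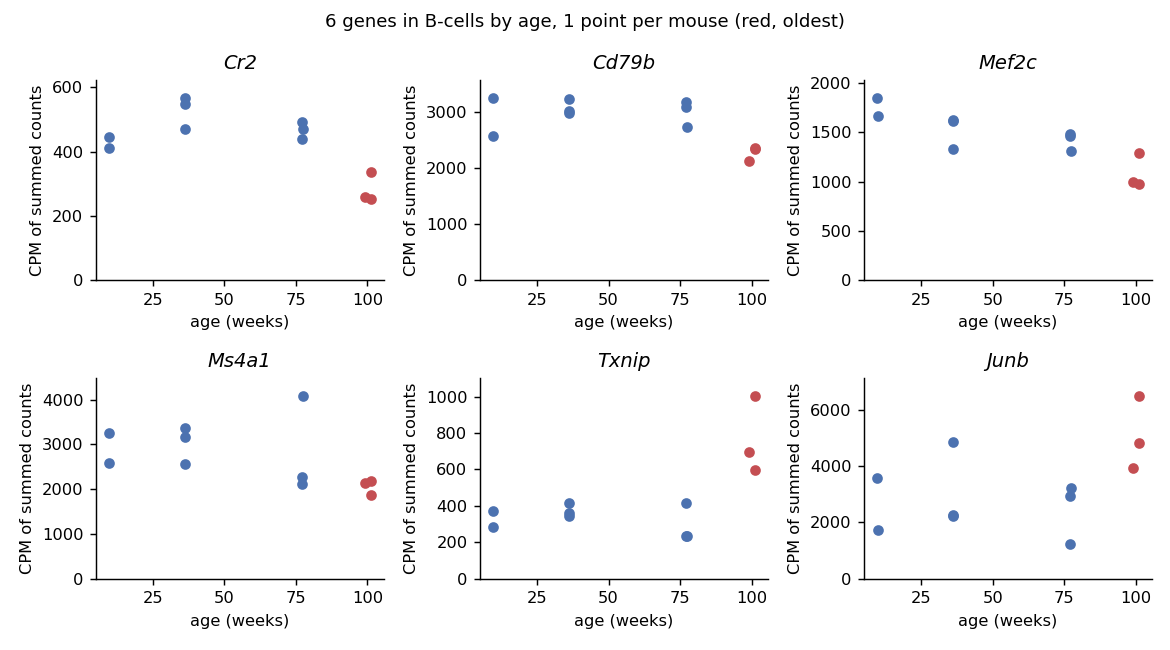
CPM of B-cell counts summed per mouse against age in weeks for 6 genes, 1 point per mouse (n = 11). Red points are the 3 oldest mice and blue points the 8 younger mice. The groups do not overlap for Cr2, Cd79b, Mef2c and Txnip and overlap for Ms4a1 and Junb, and none of the 6 passed the threshold.

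Of the lists, B-cell identity had 17 genes tested, of which 0 passed and 4 had an unadjusted p under 0.05, all lower in the oldest mice, at a median log2 difference of -0.18 against -0.05 over all genes. Cd79b and Fcrla (2 of 17) were below the younger mice in every oldest mouse, as 1.34% of all genes were. Over all genes, 86 of 1642 were lower and 66 higher at that level of p. In B-cell receptor signalling 3 of 18 genes had an unadjusted p under 0.05, all lower, at a median of 0.0, and Cd79b and Cr2 did not overlap. Of 16 transcription factors, Mef2c did not overlap, at 980 to 1291 against 1307 to 1849 CPM (-0.59 ± 0.15, adjusted p = 0.170), and 3 of 16 had an unadjusted p under 0.05, all lower. MHC class II presentation had 0 of 11 genes at an unadjusted p under 0.05, at a median of 0.04. Immediate early and stress genes, which respond quickly to handling or stimulation, had 5 of 12 at an unadjusted p under 0.05, all higher in the oldest mice as were 66 of all 1642 genes, at a median of 0.67. Dusp2 and Ppp1r15a (2 of 12) were above the younger mice in every oldest mouse, as 3.11% of all genes were, and Junb was at 3927.5, 4812.5 and 6468 CPM against 1229 to 4834 CPM (0.80 ± 0.29, adjusted p = 0.311).

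Summed over the whole list, the identity genes took 17740.4 to 19030.3 CPM in the oldest and 19853 to 22544 CPM in the younger mice, without overlap, and the immediate early genes 10819 to 13779 and 4848 to 11297 CPM. Of the red cell list, Hbb-bs was at 20.4 to 4826 CPM in the oldest and 3063 to 39831 CPM in the younger mice (-3.10 ± 1.41, adjusted p = 0.558). In summed counts, fewer cells with a gene and less RNA of it per cell cannot be told apart. Homing receptors had 0 of 7, interferon response 0 of 5 and heat shock 0 of 5 genes at an unadjusted p under 0.05.

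Within mice, the 58 lambda cells were compared with the 542 kappa cells, with the mouse as a block. Of 1642 genes, 7 passed (0.426%), all lower in lambda cells. In edgeR 0 passed without mouse 3, 15, 21 or 24 (106 to 126 genes at an unadjusted p under 0.05), with classes by constant genes (74 genes) or with 90% of light-chain counts from 1 locus (65 genes). Pcgf6, a polycomb group gene, was at 0.437 to 20.3 CPM in the lambda and 4.11 to 84.1 CPM in the kappa cells of the mice and lower in 11 of 11 mice (log2 difference -4.47 ± 0.77, adjusted p = 0.0638). The others were Prkcsh (-2.88), 8030462N17Rik (-3.99), Emd (-3.97), Sap130 (-3.34), Srp68 (-4.19) and Rad52 (-2.47), lower in 10 or 11 of the 11 mice. These differences depended on the fit. Prkcsh turned to 0.39 with equal numbers of cells and 0.02 with limma, and Rad52 to 0.62 with classes by constant genes. With equal numbers of cells the difference of Pcgf6 was -1.85, that of Srp68 -1.76 and that of Sap130 -0.48. With limma on the mean of log2(CPM + 1) they were -0.34, -0.33 and -0.69. The median over all genes was -0.56. With equal numbers of cells of each class drawn in each mouse, the median was -0.03 and 0 genes passed, with 35 at an unadjusted p under 0.05. This draw left 116 of the 600 cells. No gene of the B-cell lists passed. The receptor gene Cd79a was at 2607.5 to 5005 CPM in lambda and 2213 to 3594 CPM in kappa cells (0.27 ± 0.10, adjusted p = 0.483), and Cd74 at 11397 to 18465 and 14049 to 21246 CPM (-0.24 ± 0.07, adjusted p = 0.329), with lambda cells lower in 10 of 11 mice.

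The 70 IgD-low cells were compared with the 530 IgD-high cells in the same way. Of 1642 genes 3 passed (0.183%), all lower in IgD-low cells: Usp53 (-4.19 ± 0.64, adjusted p = 0.0199), Fyco1 (-4.41 ± 0.78, adjusted p = 0.0395) and Rad52 (-2.64 ± 0.48, adjusted p = 0.0395), each lower in 11 of 11 mice. With equal numbers of cells per class the differences were -1.45, -1.30 and -1.46, and with limma on the mean of log2(CPM + 1) they were -0.24, -0.20 and -0.43, so that their size depended on the fit. They are scarce, with at most 4.02 CPM of Usp53 in the IgD-low cells of a mouse against 0.775 to 119.8 CPM in IgD-high cells. The median over all genes was -0.44, and with equal numbers of cells it was 0.06 and 0 genes passed, with 29 at an unadjusted p under 0.05, in the 140 cells drawn. Among the genes of B-cells none passed. Over all genes, 128 of 1642 had an unadjusted p under 0.05, of which 113 were lower. In MHC class II presentation 6 of 11 genes had an unadjusted p under 0.05, all lower in IgD-low cells, at a median of -0.51, close to that of all genes. H2-Aa was at 1529.8 to 5195 CPM in IgD-low and 3688 to 6883 CPM in IgD-high cells, lower in 11 of 11 mice (-0.52 ± 0.13, adjusted p = 0.239). Crip1, a LIM domain gene, was at 871 to 2776 against 337 to 1323 CPM and higher in 9 of 11 mice (0.77 ± 0.19, adjusted p = 0.212). Mef2c was lower in 11 of 11 (-0.54 ± 0.13, adjusted p = 0.207).

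Outside the immunoglobulin genes, most variation lay between the cells of a mouse. For the median gene, 3.09% of the variance of log2(CPM + 1) lay between mice, and 6.56% at the 90th percentile, where the numbers of mice and cells alone would give 1.67%. The part between cells includes the noise of low counts, which was not separated from differences among B-cells. Some genes had a larger share between mice, such as Sel1l3 (37.9%), Tmsb4x (33.4%) and Rps27 (26.4%). The genes that varied most beyond the trend with their mean were 4 hemoglobin genes (Hbb-bs, Hba-a1, Hba-a2 and Hbb-bt), followed by genes near 1 CPM that 1 to 3 cells set, such as Sh3d19 (1.61 CPM, with 876 CPM in 1 cell), Gpr55 and Mroh2a. Junb, an immediate early gene, ranged from 0 at the 10th percentile of cells to 8781 CPM at the 90th, and from 1238 to 6636 CPM in the means of mice.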

How the data were processed

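RNA of single blood cells was measured by scM&T-seq. The authors used Trim Galore 0.6.7 for trimming, STAR for alignment to GRCm38 and featureCounts with Ensembl genes. The values are whole-number counts per gene as deposited by the authors, without normalization. Cell type, mouse and age came from the study's cell table, by cell identifier. CPM were computed over all genes, and levels are means over cells unless said to be summed. Members and gene lists were chosen with earlier results of these data known.

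Counts were summed per mouse, or per mouse and class, and tested in edgeR 4.0.16 (TMM, robust quasi-likelihood, R 4.3.3) on protein-coding genes with a count in at least 25% of B-cells and in 5 cells at 2 ages or more, with Benjamini-Hochberg adjustment. Immunoglobulin genes were not tested. Class comparisons had the mouse as a block, which pairs cells of the same animal. Alternatives used DESeq2 1.42.0 and limma 3.58.1 (pseudocount 1), other filters and classes, genes per cell as a covariate, cells with under 10 hemoglobin counts, and each mouse left out in turn. The tests were checked on simulated data. Shares were compared by exact permutation tests over mice. Clusters came from 2000 variable genes, 10 principal components, 16 neighbours and Leiden (leidenalg 0.10.2) at resolution 0.5.

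Named genes were the markers, the most abundant or most often found members of each list, the 20 genes with most counts, the 15 most variable, up to 10 per direction past each threshold (otherwise the 5 smallest p), and the 10 leading genes of clusters. Iglc2 and Iglc3 by age, the Jchain cells, list genes named for their overlap or their place in a pathway, Crip1, H2-Aa, Cd79a and Cd74 in the class comparisons were chosen after their values were seen. Methylation data and cells of other types, apart from T-cells for reference, were not used here, and some genes that the rule names are not reported here.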

Additional observations from a re-analysis of the deposited data

Results flagged for a closer look

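In 7 of 44 values compared over the 8 younger mice, 1 mouse stood apart from the other 7 by Dixon's criterion. Chance alone meets it in about 1 in 20 groups of normally distributed values. Several of these values were near 0 in most mice, so that this rate need not hold for them. The share of transitional B-cell-like cells was 15.9% in mouse 22 (77 weeks) and 1.92 to 7.41% in the others. The B-1 list summed to 91.7 CPM in mouse 23 and 22.4 to 52.0 CPM in the others, and the memory and germinal centre list to 231 CPM in mouse 12, which had the fewest B-cells (29), and 506 to 674 CPM in the others. The NK cell list summed to 15.04 CPM in mouse 12 (0 to 0.290 CPM in the others) and the platelet list to 33.8 CPM in mouse 22 (0 to 0.170 CPM in the others). Cacna2d4, the gene with the smallest p for a slope on age, was at 57.1 CPM in mouse 12 and 0.695 to 17.2 CPM in the others, and Lgr5 at 19.9 CPM in mouse 24 and 0.833 to 1.73 CPM in the others. What sets these mice apart was not tested.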

How the results depend on the processing

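Depth and numbers of cells limit these results: genes under the filter were not tested, the classes hold few cells, and the 3 oldest mice share higher numbers of genes per cell. For the slope on age, DESeq2 called 19 genes, limma 30, and leaving out single mice gave 0 to 1 (1 without mouse 24). For the oldest mice, DESeq2 called 56, limma 378, and leaving out single mice gave 0 to 2 (1 without mouse 22, 2 without mouse 24). For lambda against kappa, 7 genes became 1 with size factors of DESeq2, 282 with DESeq2, 1 with limma, 6214 without the filter, 1008 with genes in 10% of cells, 1 in cells with under 10 hemoglobin counts (365 cells of 9 mice), 0 with classes by constant genes, 0 with a 90% rule (61 cells of 6 mice), 29 with classes by variable genes, 0 with equal numbers of cells, and 0 to 6 without single mice (0 without mice 3, 15, 21 or 24). For IgD, 3 genes became 216 with DESeq2, 4917 without the filter, 472 with genes in 10% of cells, 1 in cells with under 10 hemoglobin counts (333 cells of 7 mice), 10 with IgD-low cells at 0 counts, 0 with equal numbers of cells, and 1 to 5 without single mice (5 without mouse 1, 1 without mouse 23). Without the block that pairs classes of the same mouse, 4 genes were called for lambda and 5 for IgD. Single genes turned in 3 cases: Prkcsh was at 0.02 with limma and 0.39 with equal numbers of cells, and Rad52 at 0.62 for lambda by constant genes. The difference in lambda share was -6.44 points by constant genes and -18.2 by the 90% rule, and -0.338 to 0.642 without single mice (-0.198 without mouse 2, -0.0623 without mouse 3, -0.338 without mouse 11, -0.248 without mouse 21, -0.208 without mouse 24). With 20 principal components the transitional B-cell-like cells had no cluster of their own, and 25 of the 28 fell into one of 331 cells, while resolution 1 gave a cluster of 30 cells that held all 28. Alternatives on equal numbers of cells, lane 2 and variable genes were chosen after seeing the data. The draw of equal numbers leaves 116 cells for lambda and 140 for IgD. The cause of these changes was not tested.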
